A study of Rattus norvegicus with 12 samples.

Results

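Genes of propionate, cobalamin and branched-chain amino acid breakdown were followed in H9c2 cells, a cardiac line of embryonic rat origin whose labelled cell type is cardiomyocytes. They were a list of 31 gene symbols that share these functions. Of these, 30 had a row in the table of 30562 genes, 29 averaged 1 TPM or more and could be tested, and Cd320 was not analysed here. There were 4 groups of 3 libraries of polyadenylated RNA: cells treated with methylmalonic acid (MMA), with folic acid (FA), with both (MMA_FA), and control cells (Ctrl). All groups are the same unmodified line. The sources used here give neither the doses nor how long the cells were exposed. Nothing in the labels says that the 3 libraries of a group came from separate cultures. The p-values therefore set a group difference against the spread between these libraries alone, pooled over the 4 groups.

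Valine, isoleucine, leucine and propionate are broken down in mitochondria. The branched-chain amino acids first lose their amino group to a transaminase, and the resulting keto acids are decarboxylated by the branched-chain keto acid dehydrogenase complex. Valine and isoleucine then yield propionyl-CoA, which a biotin-dependent carboxylase, an epimerase and the cobalamin-dependent methylmalonyl-CoA mutase turn into succinyl-CoA. Cobalamin enters cells bound to transcobalamin, leaves the lysosome through a transporter complex and is handed on by a chain of chaperones. In people, inherited loss of the mutase or of the cobalamin steps raises methylmalonic acid, the acid that was given to the MMA and MMA_FA cells. Folate meets cobalamin at methionine synthase, outside this pathway.

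Values are TPM, in which each transcript is scaled to its length and to the library, so the sequencing depth is unknown. Folds are log2 differences of TPM + 1, and a gene was called where its p in limma, adjusted by Benjamini-Hochberg over the 12263 genes tested, was under 0.05. The median gene was itself lower than in Ctrl by a log2 of -0.07 in MMA, -0.05 in FA and -0.12 in MMA_FA. The counts against Ctrl are therefore also given after median-ratio scaling, which removes that shift. As a check of the cell type, 8 of the 9 cardiomyocyte markers found of 10 listed averaged under 1 TPM. Only Tnnt2, cardiac troponin T, passed the minimum, and the summed markers ranged over 21.1 to 23.8 TPM in MMA, 43.8 to 48.1 TPM in FA, 68.2 to 86.5 TPM in MMA_FA and 15.4 to 19.8 TPM in Ctrl. The summed skeletal myoblast markers Myod1, Myog, Myf5 and Des ranged over 76.4 to 80.2 TPM in MMA, 71.2 to 88.5 TPM in FA, 49.7 to 58.0 TPM in MMA_FA and 86.4 to 95.8 TPM in Ctrl. Most of that sum was Myod1, with a mean of 72.7 TPM in Ctrl and 31.7 TPM in MMA_FA. Myog and Des went the other way, from 15.8 to 18.4 TPM and from 3.04 to 4.24 TPM. Myog was highest in FA, at 21.4 TPM. Of 5 fibroblast markers 3 passed the minimum, with sums of 6867 to 7797 TPM in MMA, 7786 to 9120 TPM in FA, 6790 to 8049 TPM in MMA_FA and 6561 to 7219 TPM in Ctrl. Those sums were nearly all Col1a1 and Col1a2, with means of 2133 and 4722 TPM in Ctrl and 2811 and 5681 TPM in FA. Lum averaged 3.76 TPM in Ctrl and 3.36 TPM in FA, and Pdgfra and Dcn averaged under 1 TPM. The 3 endothelial, 3 leukocyte and 3 adipocyte markers each averaged under 1 TPM, and Adgre1 was listed at 0 in every library. These marker levels moved with the groups, and their part in the results below was not tested. In such bulk libraries, fewer cells of a type and less RNA per cell cannot be told apart.

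The levels differed far more between genes than between groups. Bcat1, the cytosolic branched-chain transaminase, averaged 350.0 TPM over the 12 libraries (302.64 to 380.55). It made up 27.5% of the summed TPM of the 30 genes in MMA, 28.5% in FA, 27.2% in MMA_FA and 29.3% in Ctrl. Hibadh, which oxidises a valine intermediate, averaged 132.2 TPM and Bckdk, the kinase that switches off the keto acid dehydrogenase, 111.9 TPM. A further 3 genes lay between 50 and 100 TPM: Mmadhc (86.6 TPM), Tcn2 (72.1 TPM) and Bcat2 (54.8 TPM). Another 16 genes lay between 10 and 50 TPM. The 7 genes between 1 and 10 TPM were Aldh6a1, Mmut (9.03 TPM), Mmab (7.88 TPM), Mccc1 (7.26 TPM), Pccb (7.07 TPM), Mmachc (6.18 TPM) and Mmaa (2.49 TPM). Acss3, a mitochondrial propionyl-CoA synthetase, was listed at 0.05 to 0.23 TPM and was not tested.

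**Figure D1:**
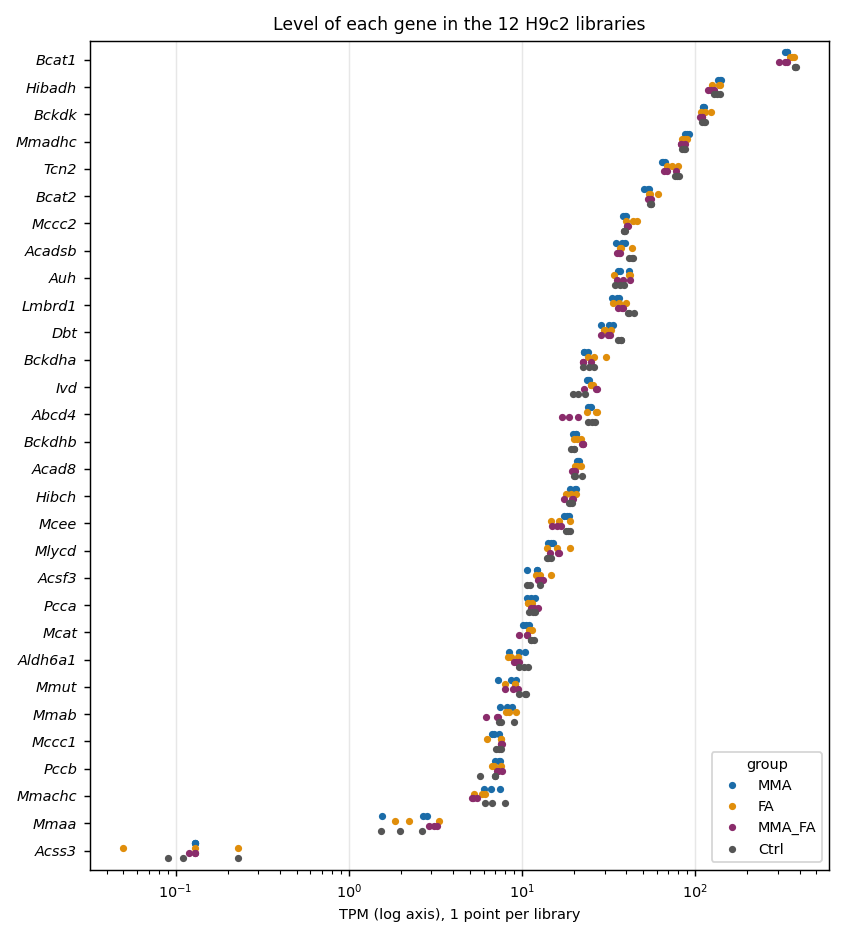
TPM of each of the 30 genes on a log axis, 1 point per library, coloured by group (MMA, FA, MMA_FA, Ctrl). The genes run from Bcat1 at 302.64 to 380.55 TPM down to Acss3 at 0.05 to 0.23 TPM, and the groups lie close together within each gene.

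The summed TPM of the 30 genes was 1223 ± 13.3 in MMA, 1273 ± 16.9 in FA, 1193 ± 29.6 in MMA_FA and 1289 ± 6.91 in Ctrl (SD, n = 3 each). On the log2 scale the sum differed from Ctrl by -0.08 in MMA, -0.02 in FA and -0.11 in MMA_FA, close to the shift of the median gene in MMA and MMA_FA.

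Single genes moved more than the sum. Against Ctrl, limma called 5 of the 29 genes in MMA, all lower, where 20.4% of all genes were called (3.85% higher, 16.5% lower). In FA it called 3, of which 1 was higher and 2 were lower, where 12.4% of all genes were called (3.67% higher, 8.7% lower). In MMA_FA it called 9, of which 2 were higher and 7 lower, where 39.3% of all genes were called (6.67% higher, 32.6% lower). In none of the 3 comparisons was the share of members called larger than that of all genes. Their median log2 fold was -0.02 in MMA, 0.01 in FA and -0.06 in MMA_FA.

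The balance of higher and lower calls depended on the scaling, which shifts all genes alike; no member called as deposited changed sign. After median-ratio scaling, MMA against Ctrl gave 1 higher and 1 lower gene (15.1% of all genes called, 8.16% higher and 6.91% lower). FA against Ctrl gave 2 higher and 0 lower (9.66% of all genes, 5.78% higher and 3.88% lower). MMA_FA against Ctrl gave 6 higher and 1 lower (29.4% of all genes, 15.5% higher and 13.9% lower). Abcd4, Bckdhb and Ivd were called in MMA_FA on both scales, 6 lower calls were lost, and Acsf3, Mccc2, Pcca and Pccb were added as higher. Leaving out 1 library moved the MMA count to 3 without Ctrl replicate 1 or 2 and to 1 without Ctrl replicate 3 or MMA replicate 3, while 9.57% to 14.3% of all genes were then called. The FA count moved to 0 without FA replicate 1 or 3 or Ctrl replicate 2 or 3, to 1 without MMA replicate 1 or 2, MMA_FA replicate 1 or 3 or Ctrl replicate 1, and to 6 without FA replicate 2. Of all genes, 1.75% to 5.94% were called in the first case, 5.06% to 11.9% in the next and 21% without FA replicate 2.

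**Figure D2:**
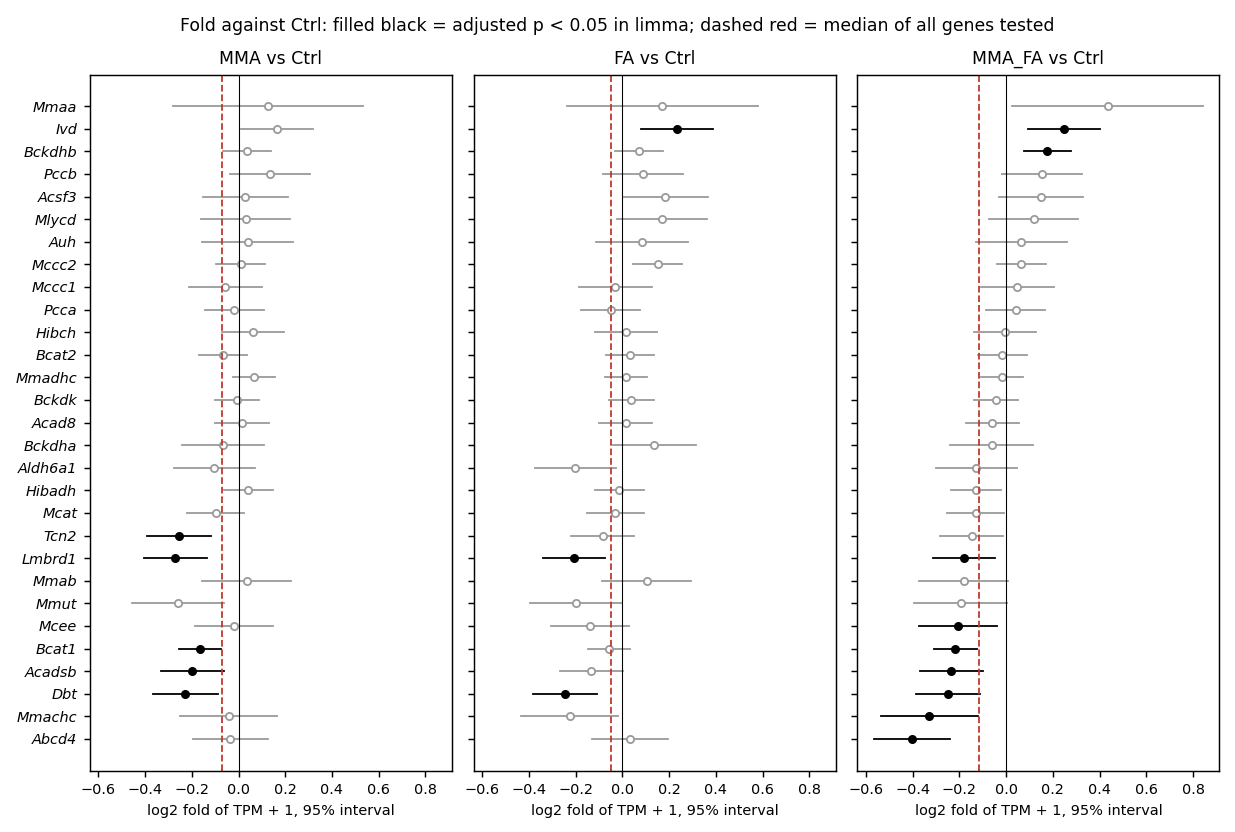
Log2 fold of TPM + 1 against Ctrl with its 95% interval for the 29 tested genes, in 1 panel per treated group; filled black points passed an adjusted p under 0.05 and the dashed red line is the median of all genes tested. Abcd4 in MMA_FA, at -0.40, lies farthest below 0, and Mmaa in MMA_FA, at 0.43 and not called, farthest above.

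Among the cobalamin transport genes, Abcd4 was lower in MMA_FA than in each of the other 3 groups. Abcd4 and Lmbrd1 encode partners that carry cobalamin out of the lysosome. Abcd4 had 25.11, 24.00 and 24.70 TPM in MMA, 26.67, 23.71 and 27.11 TPM in FA, and 21.03, 18.73 and 16.91 TPM in MMA_FA, against 23.98, 26.52 and 25.22 TPM in Ctrl. All 3 MMA_FA libraries lay below the other 9. Abcd4 fell by 0.40 on the log2 scale in MMA_FA against Ctrl (SE 0.0747, adjusted p = 0.0015 in limma). It also fell by 0.37 against MMA (adjusted p = 0.00668) and by 0.43 against FA (adjusted p = 0.00924). These calls held under every setting tried, at -0.29 (adjusted p = 0.0138) after median-ratio scaling against Ctrl. Neither compound alone moved it past the threshold (-0.03 in MMA and 0.03 in FA against Ctrl). The interaction of the 2 compounds was -0.40 (SE 0.106) and missed the threshold (adjusted p = 0.0709). It passed without FA replicate 2 (-0.46, adjusted p = 0.034) and without MMA_FA replicate 1 (-0.48, adjusted p = 0.0406), and under no other setting.

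Lmbrd1 had 36.14, 35.20 and 33.17 TPM in MMA, 36.31, 39.74 and 33.45 TPM in FA, and 37.60, 35.76 and 38.04 TPM in MMA_FA, against 41.50, 40.97 and 44.22 TPM in Ctrl. All 9 treated libraries lay below all 3 Ctrl libraries. It fell by 0.27 in MMA (SE 0.0615, adjusted p = 0.0111), a call held after median-ratio scaling (-0.19, adjusted p = 0.0423) and lost without MMA replicate 3 (adjusted p = 0.0502). It fell by 0.21 in FA (adjusted p = 0.0458) and by 0.18 in MMA_FA (adjusted p = 0.0347). After median-ratio scaling these were -0.16 (adjusted p = 0.0968) and -0.06 (adjusted p = 0.467). The FA call was lost without any 1 library other than MMA replicate 3 and FA replicate 2 (adjusted p = 0.0517 to 0.17). The MMA_FA call was lost without any 1 of its own libraries, Ctrl replicate 1 or Ctrl replicate 3 (adjusted p = 0.0511 to 0.127). Its mean was lowest in MMA, where the fold of its partner Abcd4 was -0.03.

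Tcn2, which encodes the blood carrier transcobalamin, had 64.27, 65.16 and 66.85 TPM in MMA, 68.54, 73.87 and 79.32 TPM in FA, and 77.24, 68.88 and 65.95 TPM in MMA_FA, against 78.06, 76.11 and 80.77 TPM in Ctrl. The MMA libraries were tightly grouped below Ctrl, whereas the FA and MMA_FA libraries were spread out, with 1 library of each inside the Ctrl range. Tcn2 fell by 0.26 in MMA (SE 0.0625, adjusted p = 0.0151), but not after median-ratio scaling (-0.18, adjusted p = 0.0716) or without Ctrl replicate 3 (-0.23, adjusted p = 0.0592). In MMA_FA its fold was -0.15 (adjusted p = 0.077).

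Of the 4 intracellular cobalamin chaperones, Mmachc alone was called, and only in MMA_FA. Of all genes, 49.2% were called in at least 1 pairwise comparison. Mmachc strips the upper ligand from cobalamin in the cytosol. It had 6.59, 6.07 and 7.44 TPM in MMA, 6.14, 5.87 and 5.30 TPM in FA, and 5.16, 5.52 and 5.20 TPM in MMA_FA, against 6.10, 6.72 and 8.02 TPM in Ctrl. The MMA_FA libraries lay below every MMA and Ctrl library and overlapped FA. Mmachc fell by 0.33 in MMA_FA (SE 0.0957, adjusted p = 0.0168), but not after median-ratio scaling (-0.22, adjusted p = 0.106) or without Ctrl replicate 3 (-0.23, adjusted p = 0.079).

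Mmadhc, which directs cobalamin to the cytosol or the mitochondrion, kept within 83.06 to 92.09 TPM over the 12 libraries. Its fold in MMA_FA was -0.02, with a 95% interval of -0.11 to 0.07. Mmab, the adenosyltransferase that makes the cofactor of the mutase, ranged over 6.21 to 9.26 TPM. It had -0.28 in MMA_FA against FA (adjusted p = 0.0572), which passed only without FA replicate 2 (-0.32, adjusted p = 0.0472). Mmaa, which loads and protects the mutase, had 2.69, 1.55 and 2.81 TPM in MMA, 3.31, 1.84 and 2.22 TPM in FA, and 3.12, 2.89 and 3.25 TPM in MMA_FA, against 1.53, 1.98 and 2.66 TPM in Ctrl. Its MMA_FA libraries all lay above Ctrl, with a log2 fold of 0.43 (95% interval 0.03 to 0.84, unadjusted) that did not pass (adjusted p = 0.0838), except without Ctrl replicate 3 (0.57, adjusted p = 0.0496).

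In the propionate steps themselves, 1 of 4 genes was called, where 49.2% of all genes were called in at least 1 pairwise comparison. Mcee, the methylmalonyl-CoA epimerase, had 18.73, 18.15 and 17.55 TPM in MMA, 16.42, 18.93 and 14.76 TPM in FA, and 15.85, 16.79 and 14.82 TPM in MMA_FA, against 18.43, 17.85 and 18.91 TPM in Ctrl. The MMA_FA libraries lay below all MMA and Ctrl libraries. Mcee fell by 0.21 in MMA_FA (SE 0.0768, adjusted p = 0.049), at the edge of the threshold. The call was lost after median-ratio scaling (-0.09, adjusted p = 0.423) and without any 1 library other than FA replicates 2 and 3 and MMA_FA replicate 2 (adjusted p = 0.0565 to 0.157).

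Mmut, the mutase that consumes methylmalonyl-CoA, had 9.29, 8.61 and 7.24 TPM in MMA, 9.14, 9.16 and 7.97 TPM in FA, and 8.92, 7.93 and 9.53 TPM in MMA_FA, against 9.65, 10.44 and 10.48 TPM in Ctrl. No treated library reached the lowest Ctrl library, and yet no comparison was called. Its log2 fold was -0.26 in MMA (95% interval -0.46 to -0.06, unadjusted; adjusted p = 0.0614), -0.20 in FA (adjusted p = 0.159) and -0.19 in MMA_FA (adjusted p = 0.108). The MMA value passed without MMA replicate 1 (-0.33, adjusted p = 0.0407) and under no other setting, where adjusted p reached 0.23. After median-ratio scaling the folds were -0.19, -0.15 and -0.08, and the libraries overlapped.

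Mmut, Lmbrd1, Bcat1 and Dbt were the 4 of 29 genes with all 9 treated libraries below all 3 Ctrl libraries, a pattern that 15% of all genes showed. No member had all 9 above Ctrl, against 2.93% of all genes. After median-ratio scaling Dbt was the 1 gene still below, and Bckdhb, Ivd and Mccc2 lay above, where 7.17% of all genes lay below and 7.31% above. The propionyl-CoA carboxylase subunits were not called: Pcca ranged over 10.71 to 12.32 TPM and Pccb over 5.71 to 7.69 TPM. After median-ratio scaling both were higher in MMA_FA than in Ctrl (Pcca 0.15, adjusted p = 0.0475; Pccb 0.26, adjusted p = 0.0312).

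**Figure D3:**
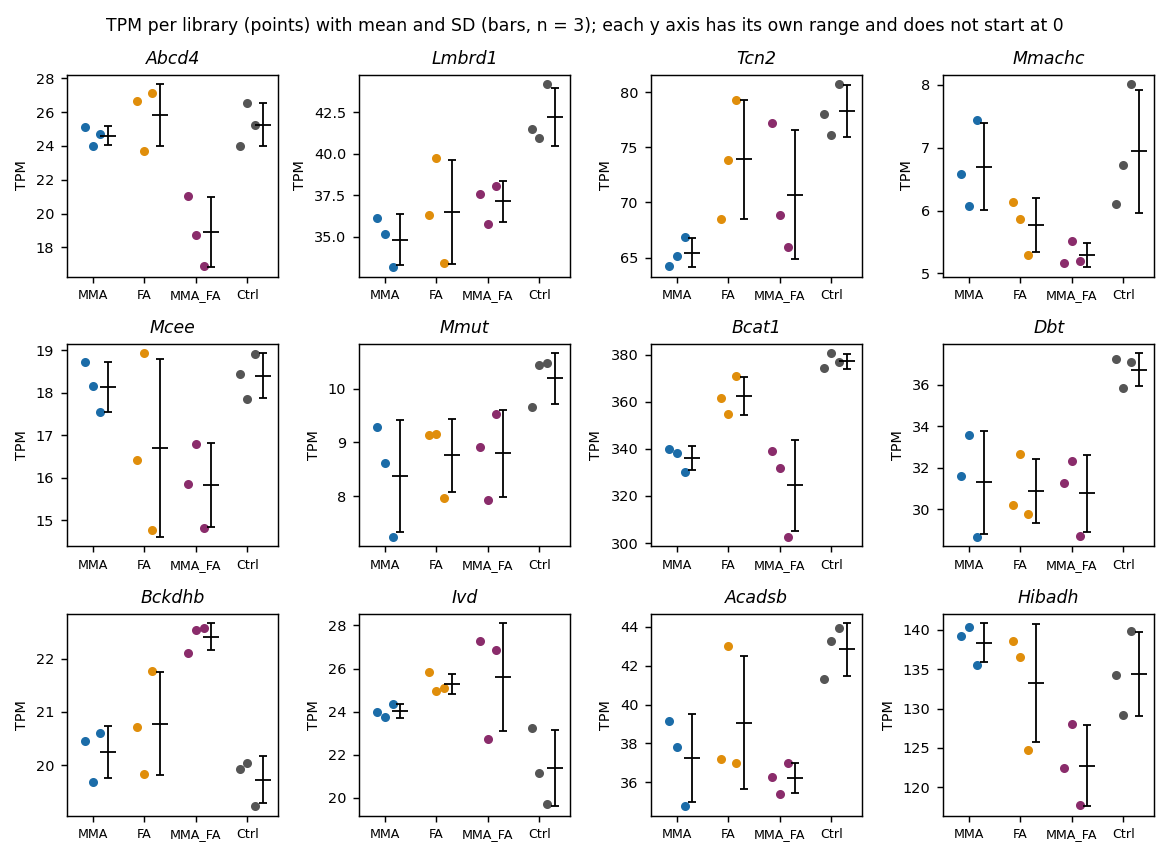
TPM per library (points) with mean and SD (bars, n = 3) for the 11 genes called in any comparison and for Mmut, by group in the order MMA, FA, MMA_FA, Ctrl. The MMA_FA libraries of Abcd4 are below the other 9, while Lmbrd1, Dbt, Bcat1 and Mmut are lower in all 9 treated libraries than in Ctrl.

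At the entry to branched-chain amino acid breakdown the genes went in different directions. Bcat1 had 339.89, 338.10 and 330.29 TPM in MMA, 361.65, 354.68 and 370.98 TPM in FA, and 339.21, 331.65 and 302.64 TPM in MMA_FA, against 374.12, 380.55 and 376.66 TPM in Ctrl. FA lay between Ctrl and the MMA and MMA_FA groups without overlap. Bcat1 fell by 0.22 in MMA_FA against Ctrl (SE 0.0418, adjusted p = 0.00185) and by 0.17 in MMA (adjusted p = 0.0171), and by 0.16 in MMA_FA against FA (adjusted p = 0.0325). None of the 3 calls held after median-ratio scaling (-0.09 each, adjusted p = 0.133, 0.206 and 0.266). The MMA call was also lost without MMA replicate 3, Ctrl replicate 2 or Ctrl replicate 3 (adjusted p = 0.0519 to 0.0636). The call against FA was also lost without FA replicate 1 or 3 or MMA_FA replicate 2 or 3 (adjusted p = 0.0658 to 0.0909). Bcat2, the mitochondrial transaminase, was not called and ranged over 50.70 to 60.65 TPM.

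The ratio of Bcat1 to Bcat2 within a library, which no scaling between libraries can change, was lower in every treated library than in Ctrl. On the log2 scale it was 2.62 to 2.74 in MMA, 2.61 to 2.74 in FA and 2.50 to 2.61 in MMA_FA, against 2.76 to 2.79 in Ctrl. MMA_FA was lowest, below all the MMA and FA libraries. Exact permutation of 3 against 3 libraries cannot go below p = 0.1, so the ratios are given as a description.

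The subunits of the keto acid dehydrogenase complex did not move together. Dbt encodes the transacylase core, and Bckdha and Bckdhb encode the subunits of the decarboxylase. Dbt had 31.62, 33.60 and 28.68 TPM in MMA, 30.20, 32.66 and 29.78 TPM in FA, and 31.26, 32.32 and 28.73 TPM in MMA_FA, against 37.27, 35.84 and 37.11 TPM in Ctrl. The 3 treated groups overlapped one another almost wholly below Ctrl. Dbt fell by 0.25 in MMA_FA (SE 0.0633, adjusted p = 0.00852), by 0.23 in MMA (adjusted p = 0.0261) and by 0.24 in FA (adjusted p = 0.0294). After median-ratio scaling its folds were -0.13, -0.15 and -0.20, none called (adjusted p = 0.149, 0.13 and 0.0718). Without MMA replicate 1 or 3 or Ctrl replicate 1 or 3 the MMA call was lost (adjusted p = 0.053 to 0.106). Without FA replicate 1 or 3 or any 1 Ctrl library the FA call was lost (adjusted p = 0.0587 to 0.106).

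Bckdhb had 20.46, 19.68 and 20.60 TPM in MMA, 20.71, 19.84 and 21.78 TPM in FA, and 22.12, 22.55 and 22.59 TPM in MMA_FA, against 19.92, 20.03 and 19.22 TPM in Ctrl. The MMA_FA libraries were close together and above all 9 others. Bckdhb rose by 0.18 in MMA_FA against Ctrl (SE 0.0468, adjusted p = 0.0106), a call held under every setting tried. After median-ratio scaling it was 0.29 (adjusted p = 0.00094). Bckdha, at 22.39 to 30.61 TPM, was not called. The log2 ratio of Bckdha to Bckdhb was 0.15 to 0.22 in MMA, 0.27 to 0.49 in FA and -0.01 to 0.17 in MMA_FA, against 0.23 to 0.39 in Ctrl. It was below the Ctrl range in all MMA and MMA_FA libraries and overlapped Ctrl in FA. Bckdk ranged over 106.48 to 123.10 TPM, with a fold in MMA_FA of -0.04 (95% interval -0.14 to 0.05).

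**Figure D4:**
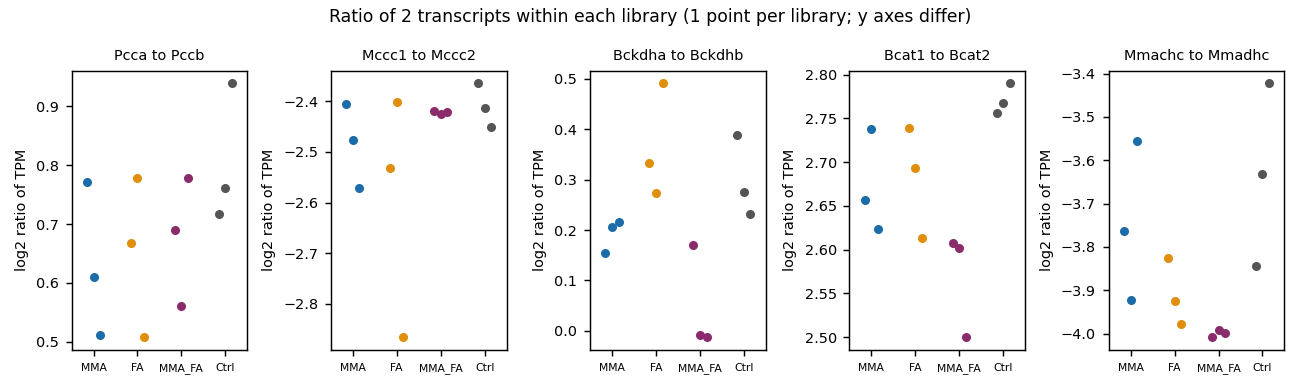
Log2 ratio of the TPM of 2 transcripts within each library, 1 point per library, for 5 pairs of subunits, paralogs or partners, with groups in the order MMA, FA, MMA_FA, Ctrl and a separate y axis per panel. The Bcat1 to Bcat2 ratio is 2.50 to 2.61 in MMA_FA and 2.76 to 2.79 in Ctrl, and the Mccc1 to Mccc2 ratio overlaps between groups.

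Of the other pairs, the log2 ratio of Pcca to Pccb was 0.51 to 0.77 in MMA, 0.51 to 0.78 in FA and 0.56 to 0.78 in MMA_FA, against 0.72 to 0.94 in Ctrl, with overlap. The ratio of Mmachc to Mmadhc was -3.92 to -3.56 in MMA, -3.98 to -3.83 in FA and -4.01 to -3.99 in MMA_FA, against -3.84 to -3.42 in Ctrl. The MMA_FA libraries were lowest there and nearly identical. For the leucine carboxylase pair, Mccc1 to Mccc2, the ratio over all libraries was -2.87 to -2.36, with overlap between the groups.

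In the valine and isoleucine branch, 2 of 5 genes were called in some pairwise comparison, as were 49.2% of all genes. Acadsb, the short branched-chain acyl-CoA dehydrogenase of isoleucine, had 39.18, 37.82 and 34.76 TPM in MMA, 37.22, 43.00 and 37.01 TPM in FA, and 36.28, 35.41 and 36.99 TPM in MMA_FA, against 41.31, 43.28 and 43.94 TPM in Ctrl. MMA and MMA_FA lay below Ctrl, and 1 FA library lay within the Ctrl range. Acadsb fell by 0.24 in MMA_FA (SE 0.0622, adjusted p = 0.0105) and by 0.20 in MMA (adjusted p = 0.0415). Neither call held after median-ratio scaling (-0.12 each, adjusted p = 0.162 and 0.181). The MMA call was also lost without MMA replicate 2 or 3, any 1 MMA_FA library or any 1 Ctrl library (adjusted p up to 0.159).

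Hibadh had 139.14, 140.38 and 135.56 TPM in MMA, 138.61, 136.51 and 124.73 TPM in FA, and 122.51, 128.01 and 117.72 TPM in MMA_FA, against 134.19, 129.14 and 139.81 TPM in Ctrl. It was lowest in MMA_FA, and 1 FA library reached into that range. Against MMA, where limma called 2 of the 29 genes, both lower (13.7% of all genes called, 4.19% higher and 9.53% lower), Hibadh fell by 0.17 (SE 0.049, adjusted p = 0.0358). It was lost after median-ratio scaling (-0.13, adjusted p = 0.143) and without MMA replicate 1 or 2, MMA_FA replicate 1 or 3 or Ctrl replicate 1 (adjusted p = 0.0524 to 0.126). The other gene called against MMA was Abcd4. After median-ratio scaling Bckdhb was higher and Abcd4 lower than in MMA (12.6% of all genes called, 6.39% higher and 6.19% lower). The count against MMA dropped to 1 without MMA replicate 1 or 2, MMA_FA replicate 1 or 3 or Ctrl replicate 1, where 868 to 1478 of all genes were called, against 1683 with all libraries. Aldh6a1 ranged over 8.25 to 10.83 TPM, Hibch over 17.57 to 20.43 TPM and Acad8 over 19.49 to 22.30 TPM, and none of these valine genes was called.

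In the leucine branch, 1 of 4 genes was called, in the upward direction, where 49.2% of all genes were called in some pairwise comparison. Ivd, isovaleryl-CoA dehydrogenase, had 23.99, 23.73 and 24.37 TPM in MMA, 25.82, 24.96 and 25.10 TPM in FA, and 27.27, 22.71 and 26.84 TPM in MMA_FA, against 23.25, 21.16 and 19.72 TPM in Ctrl. MMA and FA lay above Ctrl, whereas MMA_FA replicate 2 lay inside the Ctrl range. Ivd rose by 0.25 in MMA_FA (SE 0.0711, adjusted p = 0.0157) and by 0.24 in FA (adjusted p = 0.0492), and its fold was 0.16 in MMA. After median-ratio scaling all 3 groups were called, at 0.37 in MMA_FA (adjusted p = 0.0019), 0.28 in FA (adjusted p = 0.0246) and 0.24 in MMA (adjusted p = 0.0328). The MMA_FA call was lost without MMA_FA replicate 1 or 3 or Ctrl replicate 3 (adjusted p = 0.0596 to 0.0725). The FA call was lost without any 1 MMA or FA library, MMA_FA replicate 1 or 3 or Ctrl replicate 2 or 3 (adjusted p = 0.0527 to 0.192). Mccc1, the biotin-bearing subunit of the next enzyme, and Auh, which hydrates its product, were not called, at 6.31 to 7.68 TPM and 33.96 to 42.17 TPM. Mccc2 had 38.48 to 46.00 TPM and a fold of 0.15 in FA (adjusted p = 0.06). After median-ratio scaling it was called higher in FA (0.20, adjusted p = 0.0275) and in MMA_FA (0.18, adjusted p = 0.014).

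Among the 3 tested genes of acyl activation and malonate none was called, where 49.2% of all genes were called in some pairwise comparison. Acsf3, which activates malonate and methylmalonate, ranged over 10.64 to 14.71 TPM, and had 0.15 in MMA_FA against Ctrl as deposited and 0.26 after median-ratio scaling (adjusted p = 0.0374). Mlycd, malonyl-CoA decarboxylase, ranged over 13.92 to 19.03 TPM, and Mcat, the mitochondrial malonyl transferase, over 9.62 to 11.70 TPM.

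**Figure D5:**
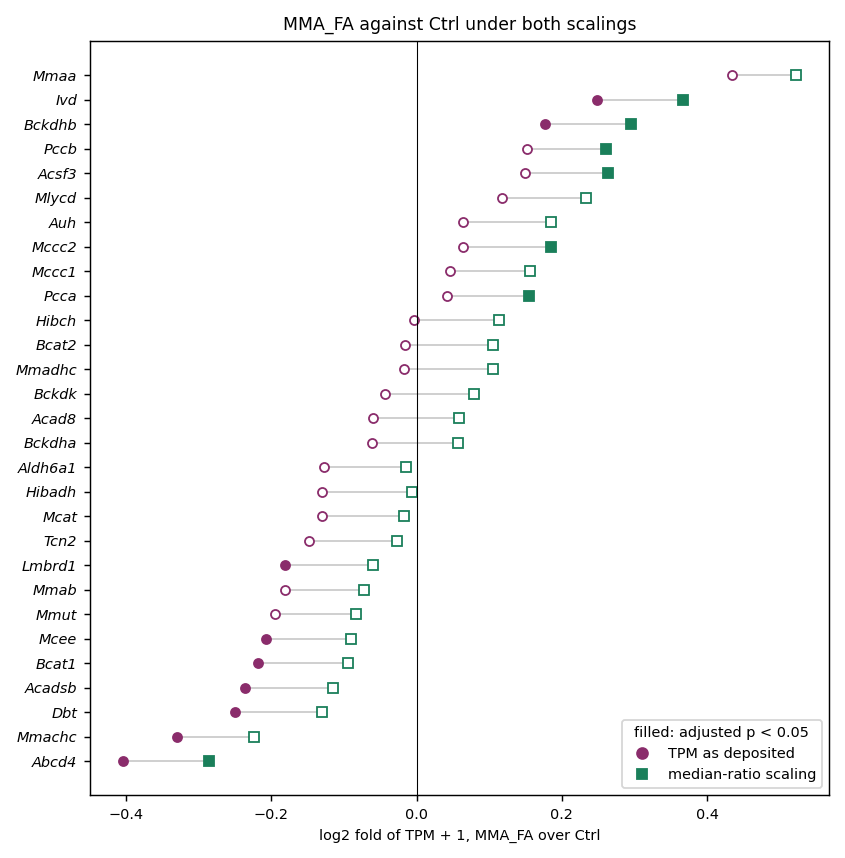
Log2 fold of TPM + 1 in MMA_FA over Ctrl for the 29 tested genes, as deposited (circles) and after median-ratio scaling (squares), with filled symbols for an adjusted p under 0.05. Scaling moves all genes up by about the same amount; 2 higher and 7 lower genes are filled as deposited, 6 higher and 1 lower after scaling, and Abcd4, Bckdhb and Ivd on both.

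Set against FA, MMA_FA had 2 of 29 genes called, Abcd4 and Bcat1, both lower (10.5% of all genes called, 1.6% higher and 8.9% lower). After median-ratio scaling these were Bckdhb, higher, and Abcd4, lower (5.9% of all genes, 3.43% higher and 2.46% lower). The count was 5 without FA replicate 2 (2010 of all genes, against 1288 with all libraries), and 1 without FA replicate 1 or 3 or MMA_FA replicate 2 or 3 (357 to 505 of all genes). The interaction, the difference between the effect of MMA with and without FA, was called for 0 of 29 genes by limma, where 2.41% of all genes were called, and also for 0 after median-ratio scaling; 5 members had an unadjusted p under 0.05. Without FA replicate 2, 2 were called, Abcd4 and Lmbrd1 (0.36, adjusted p = 0.0278), and without MMA_FA replicate 1 only Abcd4. Across the 4 groups, limma's F test called 9 of 29, where 41% of all genes were called. It called 14 without FA replicate 2, 5 without MMA replicate 1 or 2, MMA_FA replicate 1 or 3 or Ctrl replicate 2, 4 without Ctrl replicate 1 and 2 without Ctrl replicate 3. The calls over all genes moved with it, to 51.3% without FA replicate 2 and to 28.7% without Ctrl replicate 3. In all, 11 of 29 genes were called in at least 1 pairwise comparison as deposited, where 49.2% of all genes were, and the 18 others had log2 folds and interaction terms between -0.32 and 0.43.

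The promoters of the 3 genes called in MMA_FA on both scales are shown, since these calls did not depend on the scaling. They are the 250 bases before each annotated start in RefSeq on GRCr8, a build other than that of the expression values, with each CCAAT box on either strand (CCAAT or ATTGG) in capitals. Abcd4 lies at chr6:109991984-109992233 on the minus strand, Bckdhb at chr8:93725027-93725276 on the plus strand and Ivd at chr3:126305334-126305583 on the plus strand.
Abcd4: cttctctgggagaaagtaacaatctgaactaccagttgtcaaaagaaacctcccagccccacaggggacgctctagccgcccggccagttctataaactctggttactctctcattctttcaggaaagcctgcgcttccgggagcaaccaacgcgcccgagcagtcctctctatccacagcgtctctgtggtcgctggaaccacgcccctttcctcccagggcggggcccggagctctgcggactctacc
Bckdhb: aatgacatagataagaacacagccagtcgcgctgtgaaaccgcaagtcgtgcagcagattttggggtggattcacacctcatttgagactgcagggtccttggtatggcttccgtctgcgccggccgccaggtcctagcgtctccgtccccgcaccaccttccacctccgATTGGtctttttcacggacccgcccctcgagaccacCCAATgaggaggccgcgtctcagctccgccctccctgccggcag
Ivd: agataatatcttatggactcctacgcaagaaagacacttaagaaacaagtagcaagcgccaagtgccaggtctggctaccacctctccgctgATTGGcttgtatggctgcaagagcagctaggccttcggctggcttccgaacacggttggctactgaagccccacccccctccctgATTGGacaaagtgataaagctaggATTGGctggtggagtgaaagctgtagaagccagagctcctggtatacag
Abcd4, called lower, held 0 CCAAT boxes, and Bckdhb and Ivd, called higher, held 2 and 3. These 3 promoters were picked by their calls, and whether the number of boxes goes with direction was not tested. Of the 30 genes found, 24 had a promoter in the RefSeq table, and 12 of these held the box, against 34.0% of 33469 promoters of the same length. They included Dbt and Bcat1, whose calls in MMA_FA were lower. The 34.0% covers all promoters listed, without choice by expression or gene type, so it is not a matched background. The members were counted by gene, with a match in any listed promoter, while the shares of all promoters count each promoter. CACGTG was in none of the 24 (5.59% of all promoters) and TGATGNAA in none (3.4%), each searched on both strands. A match is a description of letters and not a bound site.

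Neighbouring steps were followed in 3 more lists of named functions, beside the 20.4%, 12.4% and 39.3% of all genes called against Ctrl in MMA, FA and MMA_FA. In cobalamin uptake and the methionine synthase branch, limma called 0 higher and 1 lower of 7 tested genes in MMA, 0 in FA, and 0 higher and 4 lower in MMA_FA, against Ctrl. Their median log2 fold in MMA_FA was -0.16. Mtr, the cobalamin-dependent methionine synthase, fell by 0.23 in MMA_FA (adjusted p = 0.0023) and Mtrr, which reactivates it, by 0.19 (adjusted p = 0.00651). Thap11, a transcriptional partner of Hcfc1, fell by 0.20 (adjusted p = 0.0154), and Abcc1, a cobalamin exporter in mice, by 0.16 (adjusted p = 0.0403). None of the 4 was called after median-ratio scaling (-0.11, -0.07, -0.09 and -0.04), nor was any gene of this list in MMA, FA or MMA_FA against Ctrl. The Thap11 call was also lost without MMA_FA replicate 2 or Ctrl replicate 1 or 3, and the Abcc1 call without MMA replicate 2, FA replicate 1, MMA_FA replicate 1 or 2 or any 1 Ctrl library (adjusted p up to 0.239 and 0.551 over all settings).

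In the late steps of branched-chain amino acid breakdown and leucine transport, 16 genes were tested. Against Ctrl, limma called 2 higher and 6 lower in MMA, 1 higher and 2 lower in FA, and 3 higher and 6 lower in MMA_FA. After median-ratio scaling these were 6 higher and 2 lower in MMA, 2 higher and 0 lower in FA, and 4 higher and 3 lower in MMA_FA. Their median log2 fold in MMA_FA was -0.04. Slc3a2, the heavy chain of the leucine transporter, fell by 0.37 in MMA_FA (adjusted p = 0.000323). Hadhb, a thiolase subunit of fatty acid oxidation, fell by 0.47 (adjusted p = 0.000398). Acaa2, a mitochondrial thiolase, rose by 0.39 in MMA_FA (adjusted p = 0.00153). These 3 calls in MMA_FA held after median-ratio scaling. In succinyl-CoA and biotin handling, 7 genes were tested. Limma called 0 higher and 3 lower in MMA, 0 higher and 1 lower in FA, and 1 higher and 5 lower in MMA_FA, with a median log2 fold of -0.18 in MMA_FA. After median-ratio scaling these were 1 higher and 0 lower in MMA, 1 higher and 0 lower in FA, and 2 higher and 1 lower in MMA_FA. Ogdh, a subunit of the oxoglutarate dehydrogenase, fell by 0.30 (adjusted p = 0.000594), a call held under every setting, and Btd, which recycles biotin, rose by 0.40 (adjusted p = 0.00379). Over the 30 genes of the 3 lists, calls in MMA numbered 2 higher and 10 lower as deposited and 7 higher and 2 lower after median-ratio scaling, where 15.1% of all genes were called. In FA they numbered 1 higher and 3 lower as deposited and 3 higher and 0 lower after scaling, where 9.66% of all genes were called. In MMA_FA they numbered 4 higher and 15 lower as deposited and 6 higher and 4 lower after scaling, where 29.4% of all genes were called, with 8 genes called on both scales.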

How the data were processed

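RNA from 12 libraries of H9c2 cells was sequenced after polyA selection. Per the labels' protocols, RNA was extracted with TRIzol and libraries with Illumina's stranded mRNA kit. The submitters' processing notes name fastp, HISAT2 and the build mRatBN7.2; their versions and the counting's use of strand are not stated in the sources at hand. The authors deposited TPM for each gene, in a table titled with RSEM. TPM keeps no depth, so no counting error can be given.

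The members and lists were chosen with earlier results of these data known. Where several loci share a symbol, the most highly expressed was taken. The 12263 genes averaging 1 TPM or more were fitted as log2(TPM + 1) in limma 3.58.1 (R 4.3.3), with a mean for each group and eBayes with trend, and p-values were adjusted over all genes tested. Overlapping or antisense genes could not be separated. Members called in any comparison were given in every library; other genes were named by smallest p against Ctrl, at most 4 a list, and 1 gene that this names is not reported here. In median-ratio scaling, a library was divided by the median, over tested genes, of its ratios to their geometric means. Other alternatives were a pseudocount of 0.1 TPM, no filter, a replicate block, and each library left out. The code was tested on simulated data. Plots used matplotlib 3.10.9.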

Additional observations from a re-analysis of the deposited data

Results flagged for a closer look

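Oxct1, which activates ketone bodies with succinyl-CoA, was the 1 gene among the 59 tested members and neighbours whose response to MMA differed with FA by a test of the difference itself, where 2.41% of all genes were called in that test. Its interaction term was 0.26 on the log2 scale (SE 0.0577, adjusted p = 0.0405 in limma). Oxct1 had 101.30, 99.95 and 94.84 TPM in MMA, 103.80, 108.20 and 100.66 TPM in FA, and 109.78, 106.84 and 112.62 TPM in MMA_FA, against 113.29, 110.19 and 112.75 TPM in Ctrl. It fell by 0.18 in MMA against Ctrl (adjusted p = 0.0105), and its fold was 0.07 in MMA_FA against FA (adjusted p = 0.247). The interaction call was lost with a replicate block (adjusted p = 0.0741) and without any 1 library other than FA replicate 2 (adjusted p = 0.0553 to 0.105).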

How the results depend on the processing

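Of 21 calls on members, 4 held under all 16 alternative settings: Abcd4 in 3 comparisons and Bckdhb in MMA_FA against Ctrl. The other 17 were lost under at least 1 setting, and none changed sign. After median-ratio scaling the members called numbered 2 in MMA against Ctrl (5 as deposited) and 4 in the F test (9 as deposited). Of all genes, 15.1% and 32.2% were then called, against 20.4% and 41% as deposited. Without a filter the members called numbered 0 in FA against Ctrl (928 of all genes, 1517 with the filter). They numbered 1 in MMA_FA against MMA (1268 of all genes, 1683 with the filter). In MMA_FA against FA they numbered 1 (699 of all genes, 1288 with the filter). The F test gave 5 (4180 of all genes, 5031 with the filter). More genes are tested without the filter. The calls lost without the filter were Lmbrd1 in FA and MMA_FA, Ivd and Dbt in FA, Acadsb in MMA, Mcee in MMA_FA, Hibadh against MMA and Bcat1 against FA. A pseudocount of 0.1 TPM changed no count of members, but Acat1 in FA against Ctrl, in the late list, was lost (adjusted p = 0.0503). Libraries within a group correlated at 0.9874 to 0.9925. After each gene's group mean was subtracted, same-numbered libraries of different groups correlated between -0.124 and 0.107, with 1 of 18 pairs over 0.1. As 0 libraries were then closest to their own number, no pairing by number was seen. Whether same-numbered libraries shared a culture, day or batch is not given by the labels. The replicate block gave 1 member in MMA_FA against FA (7.88% of all genes) and 5 in the F test (37.6% of all genes). Against Ctrl it gave 4 in MMA (17.9% of all genes), 2 in FA (10.6%) and 8 in MMA_FA (37.4%). With the block, Acadsb in MMA (adjusted p = 0.056 in limma) and Bcat1 against FA (adjusted p = 0.0503) were lost. Lmbrd1 was lost in FA (adjusted p = 0.0694) and in MMA_FA (adjusted p = 0.0529). Leaving out each library gave 1 to 5 members in MMA against Ctrl, 0 to 6 in FA, 6 to 10 in MMA_FA, 1 to 3 in MMA_FA against MMA, 1 to 5 in MMA_FA against FA, 0 to 2 in the interaction and 2 to 14 in the F test. Over all genes FA against Ctrl then gave 214 to 2571 (1.75% to 21%), MMA 9.57% to 24.7% and MMA_FA 29.4% to 42.7%. The all-gene share was 7.08% to 15.9% in MMA_FA against MMA and 2.91% to 16.4% in MMA_FA against FA. It was 0.693% to 4.04% in the interaction and 28.7% to 51.3% in the F test. Where no cause is named, the cause was not tested. Depth is unknown, so the precision of low genes such as Mmaa and Mmachc is known only from 3 libraries a group.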

Other observations

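Several members start within 1000 bases of a gene on the opposite strand, by the RefSeq annotation of GRCr8, and these pairs were looked up after the members' values were seen. The partner folds are from the values as deposited, without median-ratio scaling, under which the Mcee call was lost. Of all genes, 6.67% were called higher and 32.6% lower in MMA_FA, and 3.67% and 8.7% in FA. The partner of Mcee, Mphosph10, fell by 0.32 in MMA_FA against Ctrl (adjusted p = 0.000971 in limma), where Mcee itself fell by 0.21. Mphosph10 also fell in FA, by 0.23 (adjusted p = 0.0238), where Mcee had -0.14 and was not called. The partner of Mmut, Cenpq, fell by 0.43 in MMA_FA (adjusted p = 0.00482), where Mmut had -0.19 and was not called. In MMA, Cenpq had 0.21 and Mmut -0.26, neither called. Mvk, mevalonate kinase and the partner of Mmab, rose by 0.23 in MMA_FA (adjusted p = 0.0177), where Mmab had -0.18 (adjusted p = 0.12). Ikzf5, the partner of Acadsb, had -0.03 in MMA_FA (adjusted p = 0.729), where Acadsb fell by 0.24. The remaining pairs, Aldh6a1 with Lin52 and Acad8 with Thyn1, had no call against Ctrl in either gene.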
